A study of Mus musculus with 12 samples.

Results

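Histone variants are the members of the histone families that are made also outside S phase and replace the canonical histones in chromatin. Some genes of the replication-dependent clusters also give polyadenylated mRNAs. The transcripts of 10 mouse genes were followed here: *H2afx*, *H2afy*, *H2afz*, *H2afv*, *H3f3a*, *H3f3b*, *H1f0*, *H1fx*, *Hist1h2bc* and *Hist1h1c*, out of 14042 genes with reads. They were chosen by gene name. In the deposited data, 3 of the genes carry these symbols, and the other 7 are listed under newer ones (H2ax for *H2afx*, Macroh2a1 for *H2afy*, H2az1 for *H2afz*, H2az2 for *H2afv*, H1f10 for *H1fx*, H2bc4 for *Hist1h2bc* and H1f2 for *Hist1h1c*), matched through their transcript identifiers. P19 is a wild-type mouse embryonal carcinoma line. Undifferentiated cells (D0) were grown in serum medium, and differentiation toward neurons was induced by plating cells on poly-L-lysine in NDiff 227 medium with 500 nM retinoic acid for 2 (D2), 4 (D4) or 6 (D6) days. Each day has 3 biological replicates, sequenced as native poly(A) RNA on nanopores, so that a read is an RNA molecule with its own poly(A) tail. The names of the D0 runs hold both the word undifferentiated and D2, and the day was taken from the sample labels. The D0 cells had no NDiff 227 medium or retinoic acid, and each of the 13 sequencing runs holds libraries of 1 day. Day and run can therefore not be told apart, and against D0 neither can the medium and retinoic acid, which D2, D4 and D6 share.

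The replication-dependent histone genes, which supply S phase, produce mRNAs that end in a stem-loop and carry no poly(A) tail, whereas most variant genes are transcribed throughout the cell cycle and give polyadenylated mRNAs. *H2afx* can give both forms. H2A.Z, encoded by *H2afz* and *H2afv*, sits in the nucleosomes flanking promoters. H3.3, encoded by both *H3f3a* and *H3f3b*, is deposited at transcribed genes and at heterochromatin by separate chaperones. H2A.X (*H2afx*) is phosphorylated around DNA breaks, macroH2A1 (*H2afy*) carries a large macrodomain and marks repressed chromatin, and the linker histone H1.0 (*H1f0*) is known for its accumulation in cells that leave the cell cycle.

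The 12 libraries held 120326 to 613756 reads of class mRNA with a tail call of sufficient quality, of which 906 to 4099 came from these genes. Levels are given as RPM, the reads scaled to a common library size with trimmed-mean factors. In direct RNA sequencing a read stands for a molecule whatever its length, so levels of different genes were compared without division by length. The RNA is from whole cultures: fewer cells of a type and less RNA per cell cannot be told apart. The marker genes followed the labels. Of 6 genes of undifferentiated cells, 4 had reads, and their summed level was 1692 to 2019 RPM at D0 and 0 to 12.04 RPM at D2, whereas 7 neuronal markers summed to 524 to 556 RPM at D0, 290.1 to 498 RPM at D2 and 2436 to 2646 RPM at D6. The summed level of 6 neural progenitor markers was 560 to 609 RPM at D0 and 2182 to 2572 RPM at D6. Glial markers summed to 21.0 to 37.9 RPM at D0 and 29.8 to 40.8 RPM at D6, with *Aqp4* without a read on any day. Mesodermal and muscle markers had 31 reads at D0 and 2 at D6, and endodermal markers had 0 reads at D0 and at D6. The part of this shift in cell type in the changes below was not tested.

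All 10 genes are annotated on mm10, and *H2afx* and *Hist1h1c* hold the histone stem-loop in the transcript. *H2afx* (chr9:44334694-44336077, + strand, 1 exon) and *Hist1h1c* (chr13:23738808-23740367, + strand, 1 exon) are shown because they can in principle end at the stem-loop or at a poly(A) site downstream of it. Of the others, given by the span of the transcript with the most reads, *H2afy* lies at chr13:56073619-56135631 (- strand), *H2afz* at chr3:137864487-137866922 (+), *H2afv* at chr11:6427229-6444443 (-), *H3f3a* at chr1:180800832-180813632 (-), *H3f3b* at chr11:116021912-116027962 (-), *H1f0* at chr15:79028450-79030504 (+), *H1fx* at chr6:87980421-87981637 (-) and *Hist1h2bc* at chr13:23684199-23692908 (+). The stem-loops, with 5 flanking bases on each side in lower case, lie at chr9:44335240-44335255 and chr13:23739512-23739527. The consensus was searched on the transcript strand and is held by 105 of 12195 transcripts with at least 30 reads (0.861%).
H2afx stem-loop: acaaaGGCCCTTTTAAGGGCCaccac
Hist1h1c stem-loop: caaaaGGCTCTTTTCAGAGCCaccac
Among the transcripts with at least 5% of their gene's reads, none of the other 8 genes held it, *Hist1h2bc* included. Of 1017 *H2afx* reads, 1 ended within 50 nt downstream of the stem-loop, and the median read ended 821 nt beyond it. None of the 13 *Hist1h1c* reads ended within that window, and the median end lay 833 nt downstream. Because the libraries were made from poly(A) RNA, molecules that end at the stem-loop without a tail were not sampled.

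The 3′ ends of the reads defined the poly(A) sites of each gene (positions at which at least 30 reads ended within 25 nt). The last 30 transcript bases before the sites that carry the results below are shown, with a poly(A) signal hexamer in capitals.
H3f3b, 45 nt after the stop codon (chr11:116023362, - strand): atggcattttgtAGTAAAttctgtaaaata
H3f3b, 349 nt (chr11:116023058, - strand): ccttttgcAATAAAactggttatgacttga
H3f3b, 551 nt (chr11:116022856, - strand): aacatttttaaATTAAAtgttttacattca
H3f3b, 1116 nt (chr11:116022291, - strand): ctaaatttacaAATAAActtgtttattcaa
H3f3a, 512 nt (chr1:180802565, - strand): aagtttgctattaaaatacATTAAActata
H1f0, 130 nt (chr15:79029436, + strand): tATTAAAgaggacagagtttggatccctca
H1f0, 1198 nt (chr15:79030504, + strand): aactttaaAATAAAactggaaaggaaaaaa
H2afv, 233 nt (chr11:6428138, - strand): agtagaattGATAAAacattttttacaaaa
H2afv, 1142 nt (chr11:6427229, - strand): aAATAAAgaaactagcactagtgtgacaaa
All of these sites are in the 3′UTR. The *H3f3a* window holds ATTAAA a second time further upstream, with AATACA between, and only the copy nearest the site is in capitals. The windows were searched on the transcript strand for 10 hexamers. Over 11269 sites of all genes, the share of windows with each was 61.5% for AATAAA, 17.8% for ATTAAA, 3.93% for AGTAAA, 5.26% for TATAAA, 2.51% for CATAAA, 1.58% for GATAAA, 3.40% for AATATA, 2.56% for AATACA, 0.958% for AATAGA and 1.67% for ACTAAA. At least 1 was found before 86.9% of them and before 17 of the 20 sites of these genes. A match describes the letters and is not evidence that the signal was used.

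*H2afz* and the H3.3 genes were the most abundant of the 10. At D0, *H2afz* was at 2276 ± 262 RPM (SD, n = 3), *H3f3a* at 1430 ± 107 RPM and *H3f3b* at 1354 ± 94.6 RPM. *H2afv* (534 ± 52.2 RPM), *H1fx* (402 ± 35.1 RPM), *H1f0* (375 ± 29.3 RPM) and *H2afx* (235 ± 39.7 RPM) formed a middle group. *H2afy* followed with 51.5 ± 9.56 RPM. The ranges of *H3f3a* and *H3f3b* overlapped at D0, and so did those of *H1fx* and *H1f0*. *Hist1h2bc* had 57 reads in all and *Hist1h1c* 13. Together the 10 genes made up 0.607 ± 0.0310% of reads at D0, which compares with 0.727 ± 0.0224% at D2, 0.916 ± 0.0390% at D4 and, last, 0.902 ± 0.0151% at D6. Each later day lay above D0 in 3 of 3 libraries (two-sided exact permutation test, p = 0.1 for each, the smallest possible with 3 against 3).

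**Figure D1:**
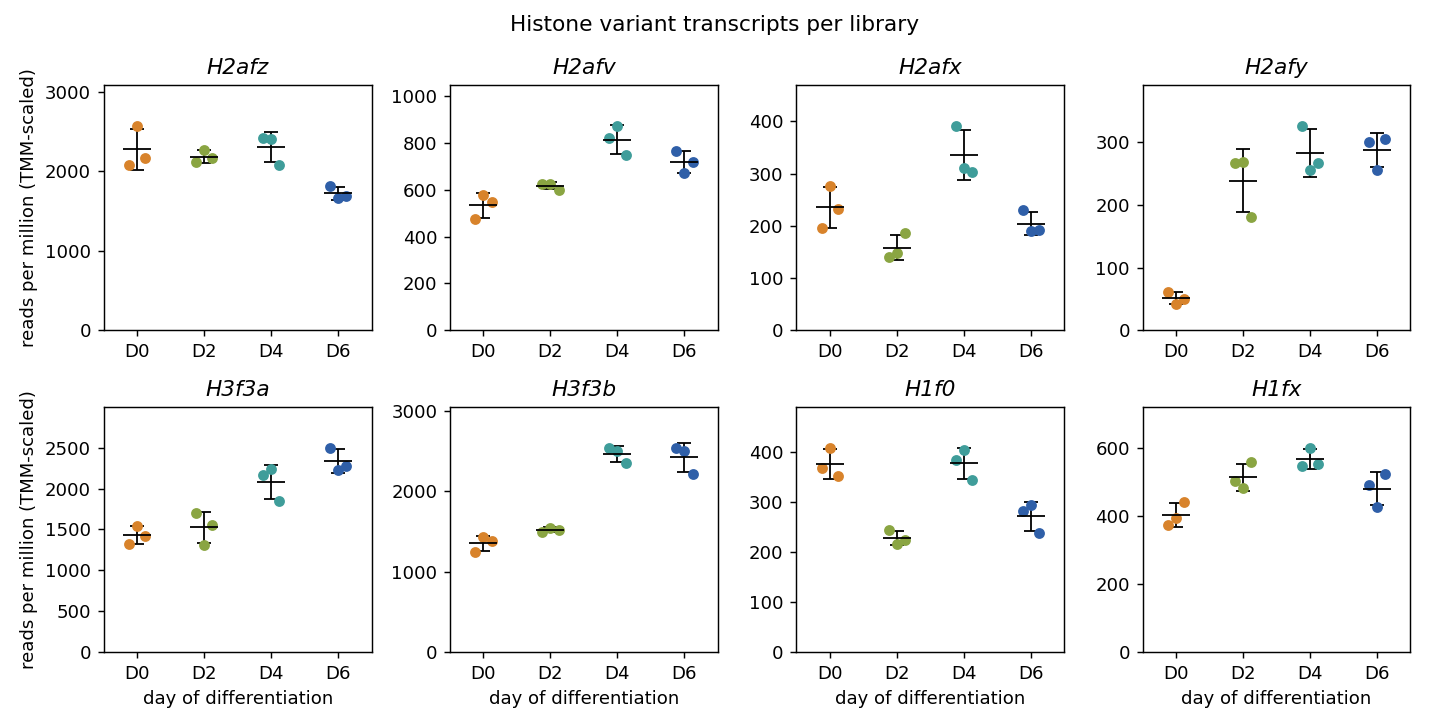
Level of the 8 better covered genes in each library (points, RPM on a linear axis from 0) by day of differentiation, with the mean and SD of 3 libraries (black). *H2afy* is low only in the D0 libraries, the H3.3 genes step up at D4, and *H2afx* and *H1f0* have their lowest means at D2.

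The transcripts of 9 genes passed the filter of 30 reads and were tested with limma-voom over 9309 genes, with Benjamini-Hochberg adjustment. *Hist1h1c* was not tested. At D2, 1 of the 9 rose and 1 fell (background, 4.48% of all genes called higher and 6.32% lower). At D4, 6 rose and none fell (background, 12.6% called higher and 12.7% lower). At D6, 4 rose and 2 fell (background, 19.4% higher and 18.2% lower). The background takes in genes with as few as 30 reads in all and was not matched for depth. Except for *Hist1h2bc*, the 9 averaged 69.0 to 748 reads per library. The median log2 fold change of the 9 on these days was 0.17, 0.53 and 0.42, against -0.05, -0.00 and 0.02 for all genes tested. When only the library total was used for scaling, the median of all genes shifted to 0.13, 0.12 and 0.26. In that scaling 65.9, 62.5 and 69.0% of all calls were higher, against 41.5, 49.7 and 51.7% with trimmed-mean factors, and of the 9 genes 4 rose and 1 fell at D2, 7 rose at D4, and 6 rose and 1 fell at D6 (background in that scaling, 7.73% higher and 4.01% lower at D2, 16.5% higher and 9.89% lower at D4, and 27.8% higher and 12.5% lower at D6). Changes below are relative to the trimmed-mean scaling.

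*H2afy* showed the largest change of these genes. Its level was 61.6, 42.6 and 50.4 RPM in the D0 libraries (23 to 26 reads each), 267, 269 and 180.5 RPM at D2, 326, 256 and 267 RPM at D4, and 301, 256 and 306 RPM at D6. Every later library was above all D0 libraries, and the 3 later days overlapped each other. The log2 fold change against D0 was 2.21 ± 0.23 (SE) at D2, then 2.44 ± 0.21, and 2.47 ± 0.21 by D6 (limma-voom adjusted p = 1.33e-11, 3.72e-15 and 1.07e-15). The rise was called in all 21 alternative settings for each of these days. *H2afy* thus rose 4.62-fold by D2, and neither later step (D4 against D2, D6 against D4) passed the test.

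Reads that span the alternative exon of *H2afy* came almost entirely from a single isoform. The transcript with the 100-base exon at chr13:56089758-56089857 (- strand) and the one with the 91-base exon at chr13:56088252-56088342 use these exons in exchange for each other. Of 435 reads that start at least 20 bases upstream and end at least 20 bases downstream of the exon, 434 carried the former. At D0, 1 of 33 spanning reads carried the 91-base exon (3.03%, exact 95% interval 0.0767 to 15.8%), and at D6 0 of 152 did (interval up to 2.40%). These intervals cover counting error only. The alignments placed 18.5% of *H2afy* reads on the 91-base form, but all of those reads had a mapping quality below 10 and their median start lay downstream of the exon.

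The H3.3 genes rose together between D2 and D4. *H3f3b* was at 1247, 1426 and 1388 RPM at D0, 1497, 1549 and 1524 RPM at D2, 2534, 2501 and 2356 RPM at D4, and 2539, 2504 and 2214 RPM at D6. The D2 libraries lay narrowly above D0, and the D4 and D6 libraries lay well above both. Its log2 fold change was 0.17 ± 0.10 at D2, which did not pass (limma-voom adjusted p = 0.298) but did by the library total (0.36, adjusted p = 0.00122), then 0.86 ± 0.08 at D4 (adjusted p = 5.84e-13) and 0.83 ± 0.08 at D6 (adjusted p = 1.01e-12). Almost no *H3f3b* read had a mapping quality of at least 10, so it could not be tested among such reads. *H3f3a* was at 1327, 1541 and 1421 RPM at D0, 1701, 1316 and 1556 RPM at D2, 2162, 2238 and 1843 RPM at D4, and 2498, 2227 and 2282 RPM at D6. D0 and D2 overlapped and D4 and D6 were above them, with a log2 fold change of 0.53 ± 0.09 at D4 and 0.69 ± 0.09 at D6 (adjusted p = 3.76e-06 and 1.53e-09). Between D2 and D4 both rose, *H3f3b* by 0.68 ± 0.10 and *H3f3a* by 0.46 ± 0.10 on the log2 scale (adjusted p = 4.75e-07 and 0.00263; background, 2.01% of genes called higher). The *H3f3a* step was lost without D2 replicate 2 (0.32, adjusted p = 0.174) and after thinning to the smallest library (0.38, 0.0792).

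The H3.3 genes gave similar numbers of reads. *H3f3b* took 48.6 ± 0.69% of H3.3 reads at D0 and 50.1 ± 3.67, 54.3 ± 1.69 and 50.9 ± 1.88% on the later days. Only D4 lay clear of D0 by the smallest p possible (two-sided exact permutation, p = 0.1, against 0.7 at D2 and 0.2 at D6).

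The genes of H2A.Z moved apart. *H2afz* was at 2081, 2573 and 2173 RPM at D0 and at 1819, 1665 and 1695 RPM at D6, all below D0, D2 and D4. It fell by 0.41 on the log2 scale at D6 (SE 0.08, limma-voom adjusted p = 8.09e-05), and by as much against D4 (-0.41 ± 0.09, adjusted p = 0.000747), while D2 (-0.05 ± 0.09) and D4 (0.01 ± 0.08) did not pass. Thinned to the smallest library, both falls were smaller and neither passed (-0.23 against D0 and -0.26 against D4, adjusted p = 0.151 and 0.223). *H2afv* was at 476, 578 and 548 RPM at D0, 627, 626 and 600 RPM at D2, 820, 874 and 749 RPM at D4 and 765, 673 and 720 RPM at D6. Its log2 fold change was 0.21 ± 0.13 at D2 (not called), 0.60 ± 0.11 at D4 and 0.42 ± 0.11 at D6 (adjusted p = 1.91e-05 and 0.00229). After thinning these were 0.42 and 0.40 and did not pass (adjusted p = 0.101 and 0.0842), and by the library total the D2 value passed (0.39, adjusted p = 0.0114).

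As a share of H2A.Z reads, *H2afv* took 18.6, 18.3 and 20.1% at D0, 22.9, 21.6 and 21.6% at D2, 25.3, 26.6 and 26.4% at D4 and 29.6, 28.8 and 29.8% at D6. The 4 days did not overlap and followed the order of time. Each later day differed from D0 by the smallest p that 3 against 3 allows (two-sided exact permutation, p = 0.1). The mean rose from 19.04 ± 0.97% to 29.4 ± 0.54%. A ratio of paralogs within a library does not depend on the scaling.

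**Figure D2:**
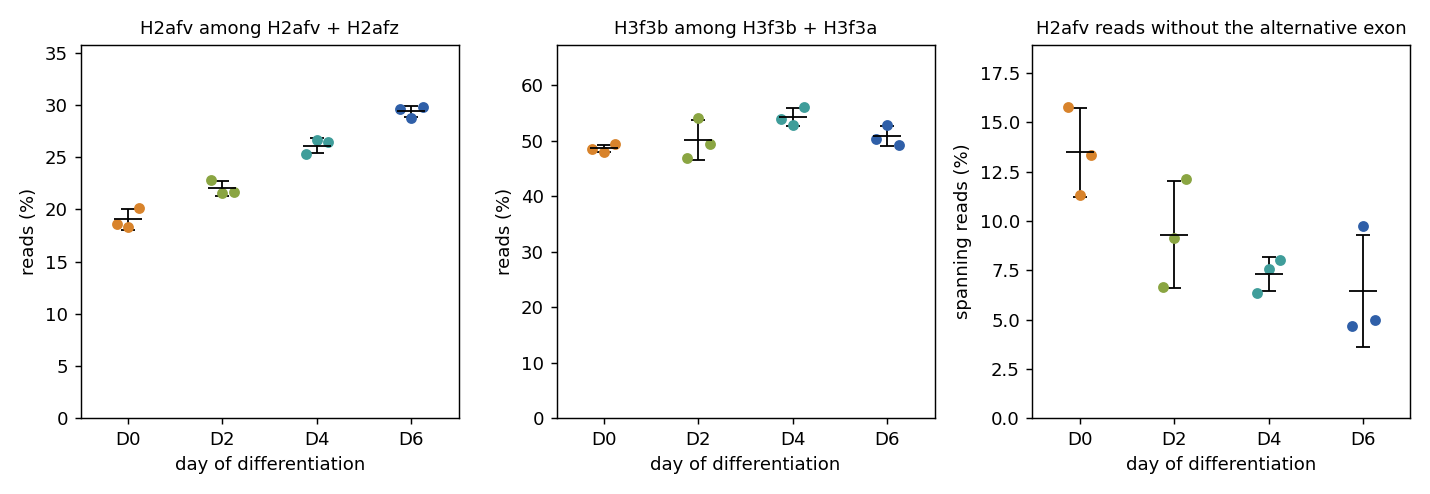
Share of *H2afv* among H2A.Z reads (left), of *H3f3b* among H3.3 reads (middle) and of *H2afv* spanning reads without the alternative exon (right), in percent, by day (points, libraries; black, mean and SD of 3). The *H2afv* share climbs from 19.04% to 29.4% without overlap between days, whereas the *H3f3b* share stays between 46.8 and 56.1%.

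*H2afx* and *H1f0* had their lowest means at D2, rose from D2 to D4 and fell from D4 to D6. *H2afx* was at 197, 276 and 233 RPM at D0, 141, 148 and 186 RPM at D2, 392, 312 and 304 RPM at D4 and 230, 191 and 192 RPM at D6. The D2 libraries held only 18 to 37 reads of it. The D4 libraries were above all others, with a log2 fold change of 1.03 ± 0.19 against D2 (limma-voom adjusted p = 0.000196), and D6 was lower than D4 (-0.70 ± 0.15, adjusted p = 0.000976; background, 3.92% of genes called lower). Against D0, the D4 value of 0.48 ± 0.14 passed (adjusted p = 0.00811), but not without D0 replicate 1 (adjusted p = 0.0525) or without D4 replicate 1 (0.0521). D2 (-0.55 ± 0.19, adjusted p = 0.0540) and D6 (-0.22 ± 0.15, adjusted p = 0.265) did not pass. The D2 value lay close to the threshold. It passed with the replicate block (adjusted p = 0.0456), limma trend (0.0323), a mapping quality of at least 10 (-0.64, 0.0246), the most-read transcript (0.0429), a mean of at least 10 reads (0.0394) and without D0 replicate 1, D2 replicate 3 or D4 replicate 1 (-0.69 to -0.59, 0.0257 to 0.0488). Thinned to the smallest library, neither the D4 value (0.49, adjusted p = 0.195) nor the fall from D4 to D6 (-0.74, 0.0622) passed, and the D4 value missed with a mapping quality of at least 10 (0.32, 0.0662). *H1f0* was at 367, 408 and 351 RPM at D0, 243, 217 and 223 RPM at D2, 384, 403 and 343 RPM at D4 and 282, 294 and 238 RPM at D6. D2 and D6 lay below D0 in 3 of 3 libraries each, and D4 overlapped D0. It fell by 0.72 at D2 (SE 0.16, adjusted p = 0.00109), rose by 0.73 from D2 to D4 (SE 0.17, adjusted p = 0.00369) and was lower at D6 than at D0 (-0.47 ± 0.13, adjusted p = 0.00398) and than at D4 (-0.47 ± 0.14, adjusted p = 0.0218). Thinned to the smallest library, the fall at D2 was -0.45 and the rise to D4 0.57, and neither passed (adjusted p = 0.249 and 0.168). With the library total alone as the scale, the D6 value against D0 was -0.23 and did not pass (adjusted p = 0.123), and the rise from D2 to D4 was lost without D2 replicate 2 (adjusted p = 0.0771). The last fall, from D4 to D6, was lost without D4 replicate 2 (adjusted p = 0.0825) or without D6 replicate 3 (0.0754), with limma trend (0.0546) and by the library total (-0.35, 0.0644).

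*H1fx*, the gene of the linker histone H1x, was at 372 to 441 RPM at D0, 482 to 558 RPM at D2, 547 to 600 RPM at D4 and 428 to 522 RPM at D6. It rose at D4 (0.50 ± 0.12, limma-voom adjusted p = 0.00108), and the values at D2 (0.35 ± 0.13, adjusted p = 0.0810) and D6 (0.24 ± 0.12, adjusted p = 0.112) did not pass. By the library total alone both were called (0.54 and 0.48, adjusted p = 0.00153 and 0.000342). The D2 value also passed with median-of-ratios factors (0.41, adjusted p = 0.0359) and without D0 replicate 3, D4 replicate 3, D6 replicate 1 or D6 replicate 2 (0.38 to 0.43, adjusted p of 0.0420 to 0.0452). *Hist1h2bc*, an H2B gene of the histone cluster, had 2 to 6 reads per library at D0, 1 to 2 at D2, 5 to 9 at D4 and 6 to 8 at D6. The log2 fold change was 0.47 at D2 (limma-voom adjusted p = 0.721) and 1.23 at D4 (adjusted p = 0.0695), where it passed by the library total (1.34, 0.0434) and without D4 replicate 2 (1.59, 0.0239). Its level of 7.38 ± 3.32 RPM at D0 and 18.8 ± 5.42 RPM at D6 gave a log2 fold change of 1.17 ± 0.51, which did not pass (adjusted p = 0.0647), but passed by the library total (1.42, adjusted p = 0.0232) and without D6 replicate 2 (1.47, 0.0350). Of the 57 reads, all ended near the same site, 322 nt after the stop codon (chr13:23692488), short of the annotated end of the transcript. *Hist1h1c*, the gene of linker histone H1.2, had 2, 2, 4 and 5 reads on the 4 days, too few for a comparison.

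**Figure D3:**
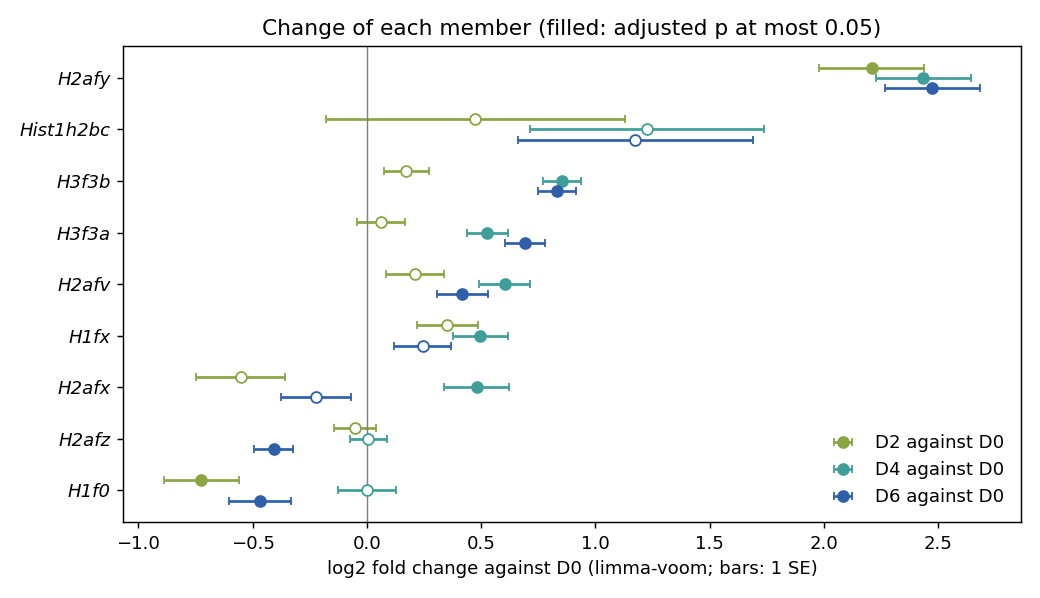
Log2 fold change of the 9 tested genes against D0 at D2, D4 and D6 (limma-voom, bars are 1 SE; filled points have an adjusted p of at most 0.05). *H2afy* lies above 2 on all days, *H3f3b*, *H3f3a* and *H2afv* are filled at D4 and D6, and *H1f0* and *H2afz* are filled below 0 at D6.

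The genes whose log2 level followed each variant most closely over the 12 libraries were listed among 1062 genes with a mean of at least 50 reads. For *H2afy* these were *Hoxb2* (Pearson r = 0.98), *Dtx4* (0.98) and *Hoxb8* (0.97). For *H3f3b* they were *Vim* (0.99), *Hmgb3* (0.98) and *Jpt1* (0.97), and for *H3f3a* *Prdx2* (0.98), *Atpif1* (0.96) and *Marcksl1* (0.96). The genes nearest to *H2afz* were the ribosomal protein genes *Rps6* (0.96), *Rps3a1* (0.95) and *Rps4x* (0.95), while *Ndufb11* (0.96), *Hmgn2* (0.94) and *Bzw2* (0.94) were nearest to *H2afv*. *H2afx* was followed by *Eif3f* (0.96), *Rps27rt* (0.88) and *Atp5d* (0.85). The closest to *H1f0* were *Atp5c1* (0.87), *Gm15501* (0.86) and *Rpl23a* (0.85), and to *H1fx* *Cdk4* (0.87), *Hmgn1* (0.87) and *Mdk* (0.87). All points share 4 days and 12 libraries, so the values are descriptions of a common time course.

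Most other histone genes had too few reads for the test in these poly(A) libraries. Of 57 with reads, 10 passed the filter, of which 3 rose and 0 fell at D6 (background, 19.4% of all genes higher and 18.2% lower). *Cenpa*, the centromeric H3 variant, was named after its values were seen; it had the most reads of those tested (1032), and its log2 fold change of -0.26 ± 0.15 did not pass (limma-voom adjusted p = 0.167). Their median log2 fold change was 0.26, against 0.02 for all genes. *Hist3h2ba* (listed as H2bu2), an H2B gene outside the main cluster, rose from 29.3 ± 6.91 to 259 ± 15.3 RPM (3.09 ± 0.24, limma-voom adjusted p = 6.56e-17). *H2afy2* (listed as Macroh2a2), which encodes macroH2A2, rose from 60.1 ± 5.72 to 223 ± 22.9 RPM (1.86 ± 0.20, adjusted p = 7.26e-12). The third, *Hist3h2a* (listed as H2aw), was named after its values were seen and rose from 12.6 ± 5.50 to 49.0 ± 13.7 RPM (1.88 ± 0.40, adjusted p = 0.000126). The 54 genes named by cluster summed to 189 ± 18.2 RPM at D0 and 444 ± 50.4 RPM at D6. Without *Hist3h2ba* and *Hist3h2a*, the remaining 52 summed to 147 ± 18.04 and 136 ± 24.6 RPM (two-sided exact permutation, p = 0.7). These genes have near-identical copies, and the split of reads among them is uncertain.

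Of 28 histone chaperones and loaders, 7 rose and 9 fell at D6 (background, 19.4% of all genes higher and 18.2% lower; median log2 fold change -0.15, against 0.02 for all genes). The 16 calls became 8, of 24 genes tested, with a mapping quality of at least 10. After thinning to the smallest library they were also 8 of 24. The share of all genes called in these settings is not given here. *Npm1* (nucleophosmin) fell from 4483 ± 297 to 1173 ± 142 RPM (-1.96 ± 0.09, adjusted p = 5.22e-29) and *Nap1l1*, a carrier of H2A-H2B dimers, from 1287 ± 33.5 to 512 ± 68.4 RPM (-1.35 ± 0.11, adjusted p = 1.98e-16), both by limma-voom. The *Chaf1b* and *Chaf1a* subunits of CAF-1, which loads canonical H3 behind replication forks, fell by 1.03 and 0.92 (adjusted p = 0.000230 and 0.00268), neither called after thinning (-0.94 and -0.84, adjusted p = 0.0629 and 0.200), and *Chaf1a* was not called among reads with a mapping quality of at least 10 (-0.43, adjusted p = 0.345). *Vps72*, the H2A.Z-binding subunit of SRCAP and TIP60 complexes, rose from 66.8 ± 2.25 to 127 ± 28.5 RPM (0.85 ± 0.22, adjusted p = 0.00140). *Ruvbl2*, an ATPase shared by these complexes, fell by 1.149 (adjusted p = 9.10e-07), but not among reads with a mapping quality of at least 10 (0.18, adjusted p = 0.781).

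Of 17 listed symbols of histone mRNA 3′ end processing and decay, 1 matched no gene as it was spelled and 15 were tested, and at D6 0 rose and 3 fell (background, 19.4% of all genes higher and 18.2% lower, so that the share that fell is near the background): *Eri1*, an exonuclease of the histone stem-loop (-0.97 ± 0.29, limma-voom adjusted p = 0.00632), *Snrpg* (-0.35 ± 0.11, adjusted p = 0.00748) and *Snrpb* (-0.32 ± 0.12, adjusted p = 0.0337), both Sm proteins shared with the spliceosome. The median of the 15 was -0.32. Thinned to the smallest library, none of the 3 was called (*Eri1* -1.05, *Snrpg* -0.30 and *Snrpb* -0.27; adjusted p = 0.176, 0.187 and 0.305). By the library total alone, *Snrpg* was at -0.12 (adjusted p = 0.260) and *Snrpb* at -0.084 (adjusted p = 0.550), and limma trend in place of voom weights did not call *Snrpb* (-0.30, adjusted p = 0.110). *Eri1* was not called without D6 replicate 2 (-0.77, adjusted p = 0.0759), nor was *Snrpb* without D6 replicate 2 (-0.23, adjusted p = 0.176) or without D0 replicate 3 (-0.29, adjusted p = 0.0759). The count of 3 was 1 without D6 replicate 2 and was 5 or 6 without D0 replicate 1, without any D2 library, without any D4 library or without D6 replicate 1. Of 20 S phase genes, 0 rose and 14 fell at D6 (background, 19.4% higher and 18.2% lower), with a median of -0.66. The largest falls were those of *Ung* (96.5 ± 22.9 to 12.3 ± 3.41 RPM), *Cdt1* (180 ± 18.6 to 45.7 ± 4.41 RPM) and *Dut* (413 ± 26.6 to 157 ± 4.56 RPM), followed by *Mcm6* (-1.26), *Mcm3* (-1.01) and *Cdc6* (-0.94). *Cdc6* was at 0.06 among reads with a mapping quality of at least 10 and at -0.67 after thinning, and was called in neither (adjusted p = 0.943 and 0.358). At D2, 3 of the 20 rose and none fell (background, 4.48% higher and 6.32% lower). The part of these falls in the changes of the variants was not tested.

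Poly(A) tails of the variant transcripts lay in the range of other genes. Over the 12 libraries the mean of the median tail was 100.4 nt for *H2afx*, 102 nt for *H3f3a* and *H1fx*, 104 nt for *H2afz* and *H2afy*, 112 nt for *H2afv*, 113.1 nt for *H3f3b* and 118 nt for *H1f0*, and the quartiles over 4205 genes were 99.7 and 118 nt. No call was made for the median tail at D2, D4 or D6 (0 of 8 each in limma; background, 0%, 0% and 0.856% of genes called), in the share of tails from 30 to 90 nt at D6 (0 of 8; 0.380%) or in the share of <30-nt tails at D6 (0 of 8; 0.238%). In simulated data, shifts of the median tail at D6 were called for 0 of 67 genes at 10 nt and 0 of 67 at 20 nt. At 40 nt, 25 of 66 were called. The lack of calls therefore does not show that tails were unchanged. At an unadjusted p under 0.05, 0, 0 and 1 of the 8 passed for the median at D2, D4 and D6, where 321, 379 and 591 of all 4205 genes did. For the share of tails from 30 to 90 nt at D6, 1 of 8 and 451 of 4205 passed, and for <30-nt tails 1 of 8 and 360 of 4205. The estimates for the median were below 0 for 8 of 8 genes at D2, at D4 and at D6. Their median was -6.14, -7.46 and -3.88 nt, against -2.79, -1.03 and 4.29 nt for all genes. These comparisons share the D0 libraries, and the share of all genes below 0 is not given here.

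*H2afv* had the lowest p for tail length. Its median tail was 123, 114 and 119 nt at D0, 127, 109 and 118 nt at D2, 112.8, 109.9 and 108.5 nt at D4, and 98.1, 104 and 99.3 nt at D6. The D6 libraries were below all others. The difference at D6 was -18.2 nt (95% interval -31.0 to -5.36 nt, limma adjusted p = 0.125), which did not pass. It passed when only genes with a mean of at least 30 reads were tested (adjusted p = 0.0335). For the other 7 genes the intervals at D6 included 0, the widest being that of *H2afy* (-25.0 to 20.8 nt) and the narrowest that of *H2afz* (-14.4 to 7.23 nt), so that changes of this size were not detectable. *H2afx*, with 18 to 37 reads per D2 library, had 59.0 ± 20.5% of tails from 30 to 90 nt at D2 and 33.2 ± 7.69% at D0 (adjusted p = 0.406).

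**Figure D4:**
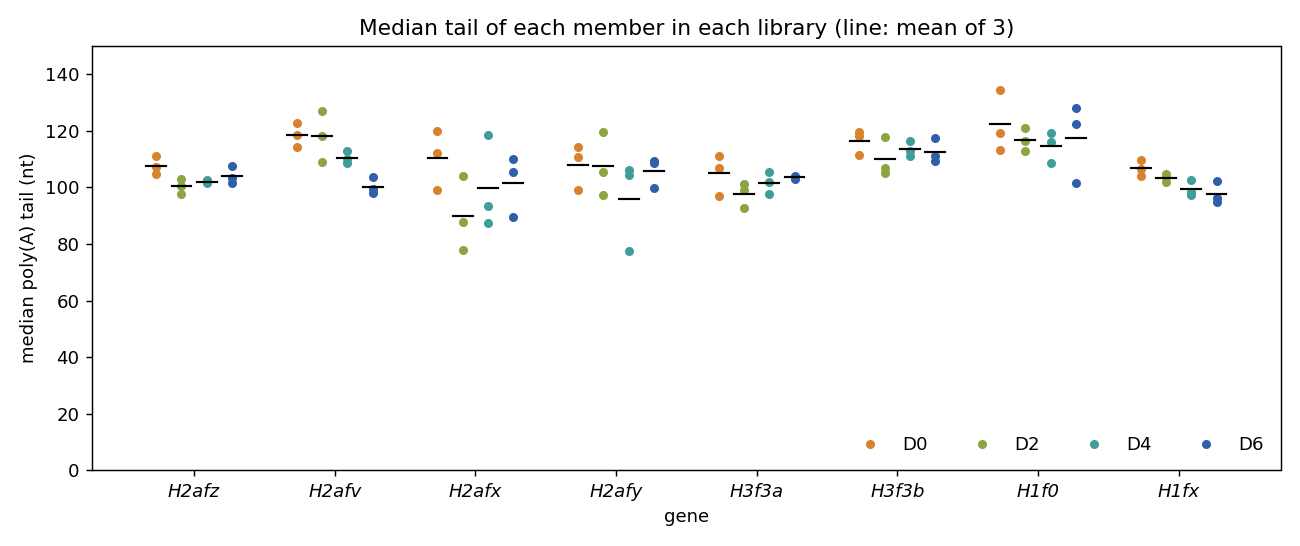
Median poly(A) tail in nt of 8 variant transcripts in each library (points, colored by day; line, mean of 3). Medians lie between 77.5 and 134.5 nt in all libraries, and only those of *H2afv* at D6 (98.1 to 104 nt) sit below all earlier libraries of the gene.

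Tail length differed between poly(A) sites of *H1f0* and of *H3f3b*. Median tails were compared within each library for pairs of sites with at least 5% of a gene's reads (two-sided exact sign-flip permutation over libraries, Benjamini-Hochberg over 1387 pairs of 968 genes), and 4 of the 12 pairs of these genes were called (background, 4.9% of all pairs). Of the 4, 3 are in *H3f3b* and share sites, so they are not independent. The median size of the difference was 10.3 nt over the 12 pairs and 11.7 nt over all. In *H1f0*, reads ending 130 nt after the stop codon had tails of 95.01 ± 18.03 nt and those ending at 1198 nt had 127 ± 12.6 nt, with a difference of -31.9 ± 25.1 nt (SD, 11 libraries, shorter in all of them; exact p = 0.000977, adjusted p = 0.0339). In *H3f3b*, tails at the 45-nt site (94.7 ± 14.9 nt) were shorter than at the 349-nt site (122 ± 6.35 nt) in 11 of 12 libraries (-27.2 nt, exact adjusted p = 0.0417), and shorter than at the 1116-nt site in 10 (-17.4 nt, exact adjusted p = 0.0498). Tails at the 349-nt site were longer than at the 551-nt site by 10.7 ± 7.09 nt (exact adjusted p = 0.0417). The differences of 45 nt against 551 nt (-16.5 nt) and of 349 nt against 1116 nt (9.86 ± 9.12 nt) missed the threshold (exact adjusted p = 0.0621 for both). They passed when at least 10 reads per site and library were asked for in place of 5, which left 589 pairs (exact adjusted p = 0.0256 and 0.0457). *H2afv* reads ending at 233 nt had tails of 112 ± 9.68 nt and those at 1142 nt 127 ± 21.8 nt (-15.3 ± 21.3 nt, 11 libraries, exact adjusted p = 0.159), which did not pass. The sites of *H3f3a* and the pair of *H2afz* did not pass either, with differences of -1.82 to 1.59 nt. Reads at different sites also differ in length and in the bases next to the tail, and the part of these in the tail estimate was not tested.

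Poly(A) site use was tested over 3927 sites of genes with at least 2 sites, and 16 of them belong to 5 of these genes. *H3f3b* used 4 main sites, and its 349-nt site took 29.3, 34.2 and 33.6% of reads at D0, 22.1, 30.1 and 28.2% at D2, 23.2, 25.7 and 23.8% at D4 and 23.7, 22.7 and 22.3% at D6. All D4 and D6 libraries were below D0. The difference at D6 was -9.47 ± 1.99 points (SE, limma adjusted p = 0.0389), the only 1 of the 16 sites called (background, 3.51% of sites), while the 1116-nt site went from 38.3 ± 2.00 to 46.5 ± 1.73% (adjusted p = 0.135). In *H3f3a* the 512-nt site took 77.3 ± 0.50% at D0 and 70.2 ± 1.65, 72.7 ± 1.61 and 78.1 ± 0.80% on the later days. The D2 libraries (68.4, 70.5 and 71.6%) were below those at D0 (76.8, 77.8 and 77.3%), with a difference of -7.12 ± 1.18 points (adjusted p = 0.0470; background, 0.407%). Both calls were narrow. The *H3f3b* call was lost in 11 of 14 alternatives (adjusted p of 0.0193 to 0.117) and the *H3f3a* call in 14 of 15 (0.0480 to 0.168), with differences of -11.0 to -8.56 and -7.85 to -5.07 points. *H3f3b* was lost without any 1 of the D0, D4 and D6 libraries (adjusted p of 0.0534 to 0.117) and *H3f3a* without any 1 of the D0, D2 and D6 libraries and without D4 replicate 1 or D4 replicate 2 (0.0708 to 0.168).

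**Figure D5:**
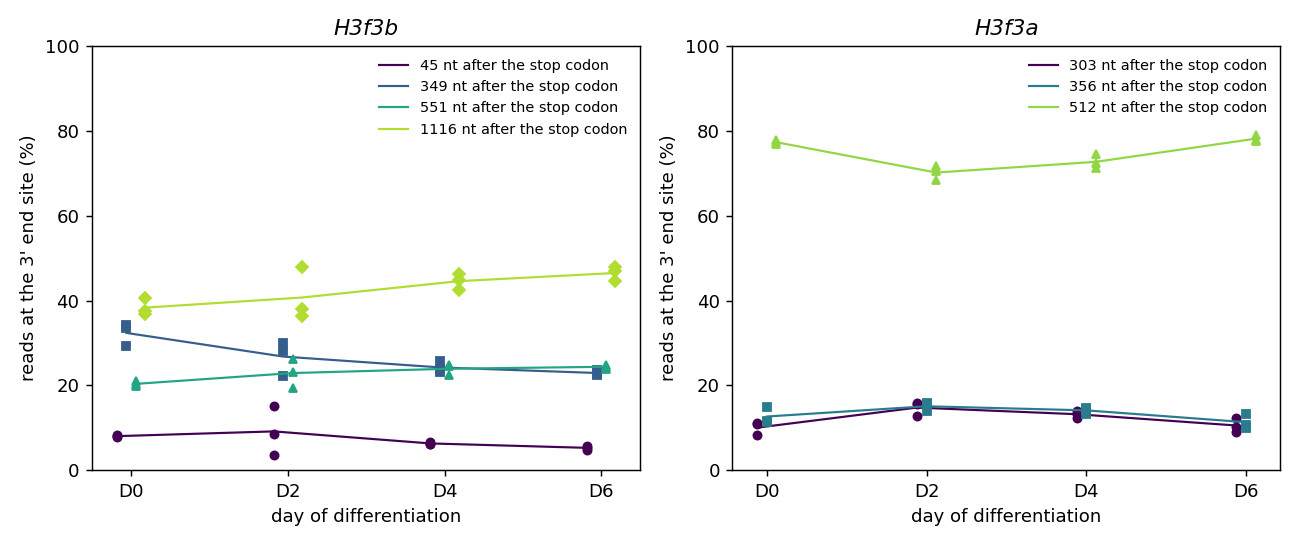
Share of reads (%) at each poly(A) site with at least 5% of reads of *H3f3b* (left) and *H3f3a* (right), by day. Points are libraries, lines join means. Sites are named by their distance from the stop codon. The 349-nt site of *H3f3b* declines from 32.4% at D0 to 22.9% at D6, and the 512-nt site of *H3f3a* dips to 70.2% at D2.

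No site of the remaining genes was called. In simulated data, shifts in the share of a gene's reads at D6 were called for 2 of 67 at 10 points. At 20 points 12 of 67 were called, and at 30 points 43 of 66. The distal 1198-nt site of *H1f0* held 79.9 ± 5.32% of reads at D0 and 85.4 ± 2.66% at D6 (limma adjusted p = 0.407). The 377-nt site of *H2afz* held 84.5 ± 1.70 and 86.8 ± 0.40%, and the 233-nt site of *H2afv* 92.6 ± 0.59 and 91.3 ± 3.01%. *H2afx*, *H1fx* and *H2afy* each had a single site within the annotated transcript, with 98.8, 98.9 and 96.6% of reads. These sites lie at or next to the annotated end (base 1384 of 1384, 1217 of 1217 and 2043 of 2046). The 1198-nt site of *H1f0* and the 1142-nt site of *H2afv* are also the last annotated base. Reads were aligned to annotated transcripts, so ends beyond these could not be seen.

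Isoform use could be read for few genes. None of 10 transcripts of 5 genes was called for a change in share at D6 (limma adjusted p of 0.293 to 0.998; background, 0.636% of transcripts called). The *H3f3b* transcripts, with 49.9 and 50.03% of reads, share most of their sequence, and only 0.0244 and 0.0973% of their reads had a mapping quality of at least 10, so the split between them cannot be read. In *H2afv*, a transcript without the 114-base exon at chr11:6433724-6433837 was found in 90 of 686 spanning reads at D0 and in 50 of 731 at D6. The share was 15.8, 11.3 and 13.4% in the D0 libraries, 6.67, 9.15 and 12.1% at D2, 6.35, 7.58 and 8.04% at D4, and 4.69, 9.73 and 4.98% at D6. D4 and D6 were below D0 in 3 of 3 libraries each (two-sided exact permutation, p = 0.1, the smallest possible). The corresponding transcript share fell by 6.25 points (SE 2.23) in the test over all transcripts and did not pass (limma adjusted p = 0.293). Of the 234 spanning reads that skip the exon, 97.0% had a mapping quality of at least 10.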

How the data were processed

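Direct RNA libraries of P19 cells at D0, D2, D4 and D6 (n = 3 biological replicates per day, multiplexed with 3 barcodes) were analyzed from the table that the authors deposited with a line per read. Per the paper's methods and the submitters' processing notes, reads were base called with Guppy, aligned by the authors to transcripts of the mm10 assembly with minimap2 2.20, and poly(A) tail lengths in nt, a score per read, were estimated by the authors with Nanopolish. A barcode confidence per read, a fraction from 0 to 1, was deposited by the authors after demultiplexing with DeePlexiCon and was not filtered on here. Other columns give the mapped positions, mapping quality, gene, class and quality tag of the deposited reads. The authors' own table of fold changes and p-values was not used.

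Of 6306365 lines, 4.587% had no assigned barcode and 69 malformed lines were skipped. Lines with tag PASS and class mRNA were kept, without mitochondrial genes and pseudogenes, which left 4274320 reads of 14042 genes. Transcript identifiers were matched to GENCODE vM21 (33640 of 34244), which gave older symbols, exons and sequences; 99.74% of matched transcripts had the same coordinates. The sequences printed here come from these transcripts on mm10, and RefSeq was not used.

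Reads per gene were tallied per library, and genes with at least 30 reads were tested by limma-voom (limma 3.58.1, R 4.3.3) with trimmed-mean factors and a pseudocount of 0.5 reads, in a fit of all 12 libraries. Median tails and shares were tested by limma with weights of n × 50/(n + 50) for n reads, for genes with a mean of at least 10 and at least 3 reads in each library. Benjamini-Hochberg adjustment was over all features of a contrast, with calls at 0.05, and intervals of tail differences use the 8 residual degrees of freedom. Exact tests are two-sided; 3 against 3 cannot go below 0.1. Because reads were tallied from a per-read table, no count model made for deposited counts was run.

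The gene names and lists, and the rule for named genes, were chosen with earlier results of these data known: all 10 genes, their transcripts with at least 5% of reads, the 3 nearest genes (averaging 50 or more reads) of each that averaged 20 or more, and up to 6 genes of each list with the largest called change at D6 and a mean of at least 10 reads. The site analysis was added after seeing the data. Scripts were tested on simulated data. Alternatives were other scalings, filters, mapping quality, thinning, weights, tail limits, a replicate block and leaving out each library. Replicate numbers are barcodes. Same-numbered libraries had correlations of -0.14 to 0.17, and 4 of 18 exceeded 0.1, against -0.20 to 0.17 for differently numbered ones. The same number gave the highest correlation in 15 of 36 comparisons. No clear pairing of the libraries was seen, but these values cannot exclude it. Replicates of a day differed by more than counting noise (chi-square per degree of freedom, 1.11 to 1.66).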

Additional observations from a re-analysis of the deposited data

How the results depend on the processing

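D2 libraries held 120326 to 241064 reads. Thinned to the smallest library, for which the share of all genes called is not given, 8 of these genes were tested in place of 9. Of them, 1, 2 and 1 were called at D2, from D2 to D4 and from D4 to D6, in place of 2, 4 and 3. By the library total alone, 5 were called at D2. Without D2 replicate 2, 2 were called from D2 to D4. With no filter, 6 of 57 other histone genes were called (28.1% of all genes in that setting) in place of 3 of 10. Of the chaperones, 8 of 24 tested were called with a mapping quality of at least 10. After thinning 8 of 24 were called, in place of 16 of 28. Of the 3′ end factors, 5 of 13 and 0 of 14 were called in these settings, in place of 3 of 15. The shares of all genes called in both settings are not given here. Leaving out single libraries gave 1 to 6 3′ end factors, 13 to 15 S phase genes, 13 to 16 chaperones and 3 to 4 other histone genes. For the median tail, 1 gene was called with a mean of at least 30 reads. Site calls were 0 to 1 at D2 and 0 to 2 at D6 without single libraries, and 0 at both days without weights, with a mapping quality of at least 10 and with the replicate block. The replicate number as a block, for which no clear pairing was seen, otherwise kept every count within 1.5 times. Small values that were not called changed sign. At D2, *H2afz* was at 0.0042 by median-of-ratios factors, 0.13 by the library total and 0.055 after thinning (-0.093 to 0.042 without single libraries), and *H3f3a* at -0.079 with a mapping quality of at least 10 (-0.051 to 0.22). At D4, *H2afz* was at -0.00094 without a filter, -0.10 with a mapping quality of at least 10 and -0.018 for the most-read transcript (-0.035 to 0.10), and *H1f0* at -0.00099, -0.15 and -0.023 in the same settings (-0.051 to 0.094). At D6, *H2afx* was at 0.012 by the library total. Called values turned with a mapping quality of at least 10 for *Ruvbl2* (0.18) and *Cdc6* (0.064). The cause was not tested. Of 807 repeats of 40 called single values, 748 kept direction and call, 57 lost the call and 2 turned.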
